A study of Gallus gallus with 2 samples.

Results

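Circadian clock genes keep daily time in most cells of the body, and 10 of them were followed here in breast muscle of Xichuan black-bone chickens, a strain with dark meat, skin and bones. They are CLOCK, ARNTL, NPAS2, PER2, PER3, CRY1, CRY2, NR1D2, NFIL3 and BHLHE40, and they were found by gene symbol among the 15073 genes listed with a fragment count and an FPKM value. All 10 were listed in both libraries. The control group received a basal diet, and test group IV received the same diet with 0.8% added tyrosine, the amino acid from which melanin is made. Breast muscle was taken at week 12, after a fast in which all birds kept access to water. Each group is represented by 1 library made from the mixed RNA of 3 birds, so the libraries carry no replicate error, and the spread between birds or pools is not known. The hour of the day at which each bird was sampled, the lighting schedule and the sex of the birds are not given in the sources used here. The groups were compared to see whether clock genes differed between the libraries, as a sign of sampling time or state, which the diet cannot be told apart from with 1 pool per group.

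In the clock, CLOCK or its relative NPAS2 pairs with ARNTL (also called BMAL1) on E-box sequences and switches on the PER, CRY and NR1D genes and BHLHE40. PER and CRY proteins then block the CLOCK-ARNTL pair, NR1D proteins repress ARNTL, and the slow build-up and decay of these repressors sets the length of the cycle. In skeletal muscle this loop is known to time genes of fuel use, and food intake and glucocorticoid hormones are known to act on it in mammals. The first 3 genes are called the positive arm below and the other 7 the negative arm, in which NFIL3 is counted because it represses the genes that D-box factors switch on.

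The libraries held 13135159 (control) and 14318101 (test group IV) counted fragments. FPKM is the fragment count divided by transcript length and depth, so that levels of different genes can be compared. A difference is given as the log2 FPKM ratio of the test group IV library to the control library, with an exact Clopper-Pearson 95% interval that covers counting error only. Shares of all genes refer to the 11010 genes that reached an FPKM of 1 in either library, whose median log2 FPKM ratio was 0.09. Genes without control fragments are not listed, so the shares of genes higher in test group IV leave out genes found only there. Fast muscle markers gave the labelled tissue, with FPKM values of 9943 and 9424 for TNNT3 and of 8007 and 8638 for TNNI2 in the control and test group IV libraries. PVALB, also on the muscle list, was close to absent in both libraries (0.0408 and 0.187 FPKM), and the other 4 symbols of that list were not found. Melanocyte markers were higher in test group IV, where the 4 of 7 that were found summed to 10.4 FPKM against 0.527 in the control group. Each of the 4 had 10 fragments or fewer in the control library, so the size of this difference is uncertain. A marker with fragments in test group IV only could not be found. In pooled tissue, fewer cells of a type and less RNA per cell cannot be told apart.

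None of the 10 clock genes differed by 2-fold or more between the libraries, where 3.1% of all genes were higher and 3.31% lower. PER3 was past that limit after the libraries were scaled by the median ratio. In the negative arm, 5 of 7 genes were lower in test group IV by more than counting error, against 15.3% of all genes. In the positive arm this was so of ARNTL, whose difference was as small as that of NFIL3. PER2 had 46.4% less and PER3 49.7% less FPKM in test group IV, BHLHE40 had 33.9% less and NR1D2 28.8% less. CRY1 went the other way with 18.2% more. CLOCK was 13% higher and ARNTL 11.6% lower.

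The levels spanned a wide range, and every clock gene but PER3 and NPAS2 was at or above percentile 77.8 of all listed genes in both libraries. CRY1, a repressor of the CLOCK-ARNTL pair, was the highest of the 10 in both libraries, at 88.8 FPKM in the control group and 105 FPKM in test group IV. NFIL3 and CRY2 came next in both. In the control group the order went on with BHLHE40, NR1D2, PER2, CLOCK, ARNTL, PER3 and NPAS2. In test group IV, PER2 moved from place 6 to place 8, below CLOCK and ARNTL, and the other genes kept their order. The counting intervals of some neighbours in this order overlapped, namely in the control library CRY2 with BHLHE40 and CLOCK with ARNTL. In test group IV they overlapped for BHLHE40 with NR1D2, NR1D2 with CLOCK, ARNTL with PER2, and PER3 with NPAS2. Fragment counts gave another order, because a long transcript yields more fragments at the same FPKM. By the ratio of count to FPKM, PER3 was 3.16 times and PER2 2.27 times as long as CRY1.

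**Figure D1:**
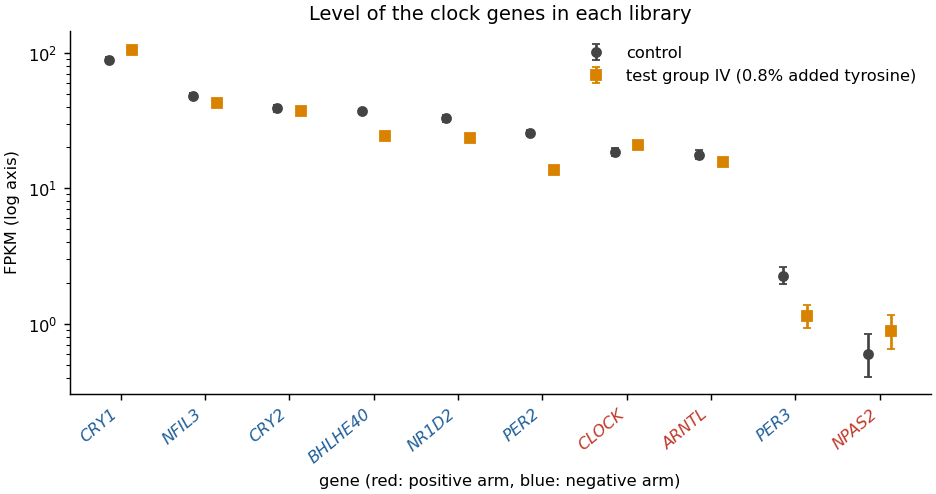
FPKM of the 10 clock genes (log axis) in the control library (grey circles) and the test group IV library (orange squares), with 95% counting intervals that leave out variation between birds. Genes are ordered by their control level, from CRY1 at 88.8 FPKM to NPAS2 at 0.595 FPKM, and the points of PER2 and PER3 lie farthest below their control values.

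In the positive arm, CLOCK, which encodes the DNA-binding partner of ARNTL, lies on chromosome 4 of Galgal5 from 65497092 to 65522295. It had 1045 fragments in the control library and 1287 in test group IV (18.5 and 20.9 FPKM), a log2 ratio of 0.18 with an interval from 0.06 to 0.29. After the libraries were scaled by the median ratio it was 0.09, and 6661 of the 11010 genes had a lower ratio.
ARNTL, the partner without which CLOCK does not bind its sites, lies on chromosome 5 from 7560411 to 7605351. Its counts were 736 and 709 fragments and its levels 17.7 and 15.6 FPKM in the control and test group IV libraries. The log2 ratio was -0.18 (interval from -0.33 to -0.03), a small difference in the direction opposite to that of CLOCK.
NPAS2, a relative of CLOCK that can take its place, lies on chromosome 1 from 133370840 to 133430784. It was scarce, with 31 fragments in the control library and 50 in test group IV (0.595 and 0.880 FPKM). Its log2 ratio of 0.57 had an interval from -0.11 to 1.26, so a difference was not detectable at this depth. The median log2 ratio of the 3 genes was 0.18, and their FPKM values summed to 36.8 in the control library and 37.4 in test group IV. Without NPAS2, which did not reach an FPKM of 1 in either library, the median was -0.001.

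In the negative arm, the PER genes encode the proteins that carry CRY into the nucleus and whose level sets the phase of the clock. PER2 lies on chromosome 9 from 5502475 to 5526782. It was counted with 1523 fragments in the control library and 890 in test group IV, or 25.5 and 13.7 FPKM. The log2 ratio was -0.90 (interval from -1.02 to -0.78). Of the 11010 genes, 451 had a lower ratio than PER2, and among the 4195 genes whose FPKM averaged 10 or more it stood at percentile 2.29.
PER3, on chromosome 21 from 272583 to 291803, was far less abundant than PER2. It had 188 fragments in the control library and 103 in test group IV, with FPKM values of 2.26 and 1.14. Its log2 ratio of -0.99 was the lowest of the 10 genes, with an interval from -1.35 to -0.64, and 373 of the 11010 genes had a lower one. After scaling by the median ratio the value was -1.08, past a 2-fold difference.

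The cryptochromes CRY1 and CRY2, which bind CLOCK and ARNTL directly and repress them, did not follow the PER genes. CRY1 lies on chromosome 1 from 53642388 to 53676704 and had 2334 and 3008 fragments in the control and test group IV libraries. The log2 ratio was 0.24 (interval from 0.16 to 0.32), and 0.15 after median ratio scaling. CRY2, on chromosome 5 from 23947126 to 23965889, had 1108 and 1162 fragments, or 38.9 and 37.4 FPKM. Its log2 ratio of -0.06 had an interval from -0.18 to 0.06, which held no difference. The locus of CRY2 shares 135 bases with that of SLC35C1 (413 and 424 fragments), and whether the counting used strand is not given in the sources used here. None of the other 9 loci overlapped a listed gene.

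NR1D2, BHLHE40 and NFIL3 are repressors outside the PER-CRY complex, and all 3 were lower in test group IV by more than their counting error, NFIL3 by the smallest amount. Of the genes whose FPKM averaged 10 or more, as in these 3, 19.0% had an interval below no difference. NR1D2 encodes the nuclear receptor REV-ERB beta, a heme-binding repressor of ARNTL and of lipid and glucose genes. It lies on chromosome 2 from 37345920 to 37368540 and had 1124 fragments in the control library and 873 in test group IV (32.7 and 23.3 FPKM), a log2 ratio of -0.49 (interval from -0.62 to -0.36).
BHLHE40 (also called DEC1) competes with CLOCK-ARNTL for E-boxes. It lies on chromosome 12 from 18624949 to 18629296 and had 1782 and 1285 fragments, with 37.0 and 24.5 FPKM in the control and test group IV libraries. The log2 ratio was -0.60 (interval from -0.70 to -0.49), at percentile 4.22 of the genes whose FPKM averaged 10 or more.
NFIL3 (also called E4BP4), on chromosome Z from 44346752 to 44358514, binds D-boxes as a repressor. It had 1309 fragments in the control library and 1260 in test group IV, 48.0 and 42.4 FPKM. Its log2 ratio was -0.18 (interval from -0.29 to -0.07), close to that of ARNTL and smaller in size than those of the PER genes.

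**Figure D2:**
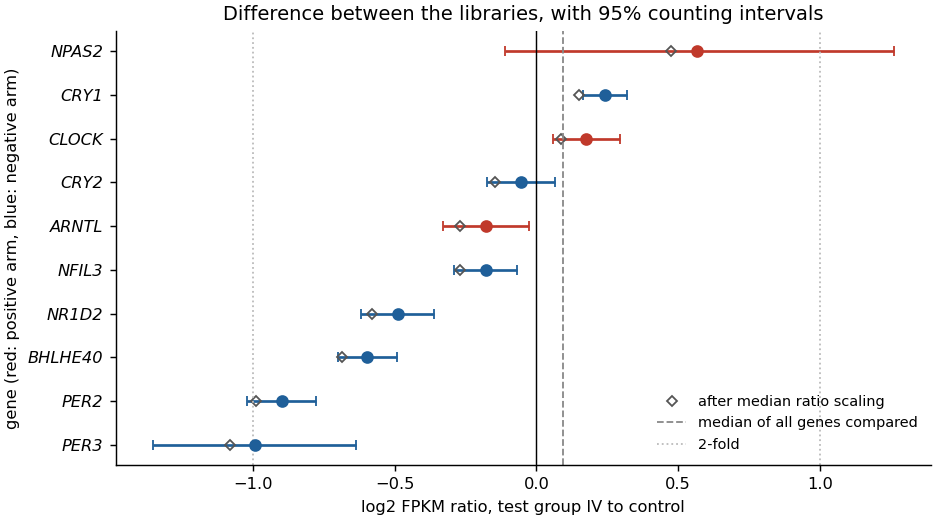
Log2 FPKM ratio of the test group IV library to the control library for each clock gene (x axis), with 95% counting intervals, in red for the positive arm and blue for the negative arm; open diamonds are the values after median ratio scaling. PER3 at -0.99 and PER2 at -0.90 lie nearest to the 2-fold line on the left, and CRY1 at 0.24 lies on the right with CLOCK and NPAS2.

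Counted over the 9 genes that passed the filter of an FPKM of at least 1 (all but NPAS2), 0 were at least 2-fold up and 0 at least 2-fold down in test group IV. Over all genes compared, 3.1% were up and 3.31% down by that limit. After median ratio scaling PER3 was past it, 1 gene of 9, and the shares of all genes were 2.56% up and 3.97% down. With a limit of 1.5-fold, 3 of the 9 (PER2, PER3 and BHLHE40) were lower and 0 higher, where all genes gave 8.24% lower and 10% higher. Median ratio scaling left these counts at 3 and 0 while the shares of all genes became 10.3% lower and 7.83% higher. The counting interval lay below no difference for 6 of the 9 (ARNTL, PER2, PER3, NR1D2, NFIL3 and BHLHE40) and above it for 2 (CLOCK and CRY1), against 15.3% and 28.6% of all genes. After median ratio scaling the interval of CRY2 was also below no difference and that of CLOCK was no longer above it, and the shares of all genes were 21.3% and 19.9%. Abundant genes have narrower intervals. Among the 4195 genes whose FPKM averaged 10 or more, 19.0% had an interval below and 41.8% above no difference, and of the 8 clock genes in that class 5 were below and 2 above. The median log2 ratio of the 7 negative-arm genes was -0.49, whereas that of all genes compared was 0.09. These counts describe 2 libraries, and genes of 1 loop are not independent of each other. The 10 genes were also chosen with earlier results of these data known.

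**Figure D3:**
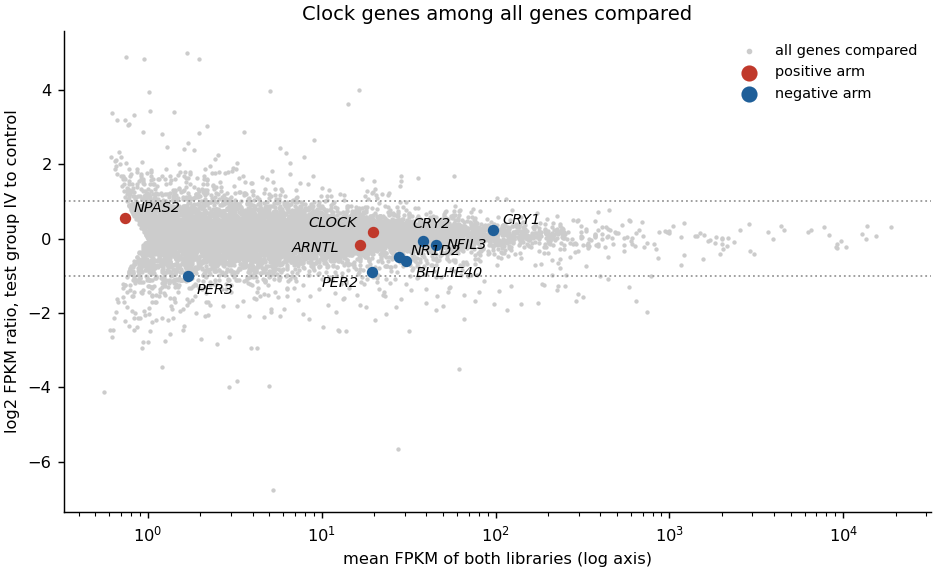
Log2 FPKM ratio of the test group IV library to the control library (y axis) against the mean FPKM of both libraries (log axis) for the genes compared (grey, genes with fragments in both libraries) and the 10 clock genes (red and blue). PER2, BHLHE40 and NR1D2 lie toward the lower edge of the genes of similar level, at percentiles 2.29, 4.22 and 5.84 of the genes whose FPKM averaged 10 or more, and CRY1, CRY2 and CLOCK lie inside the band.

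Ratios between clock genes of the same library do not depend on how the libraries were scaled. The PER2 level was 1.44 times that of ARNTL in the control group and 0.874 times in test group IV, a log2 change of the ratio of -0.72 with an exact conditional 95% interval from -0.91 to -0.53. Against CLOCK, PER2 went from 1.38 times to 0.653 times its level, a change of -1.08 (interval from -1.25 to -0.91). Among transcripts of the PER and CRY genes, PER2 stood at 0.287 times the CRY1 level in the control library and at 0.130 times in test group IV. That change was -1.14 on the log2 scale (interval from -1.29 to -1.0). Against CRY2, PER2 went from 0.655 times to 0.365 times its level, a smaller change of -0.84 (interval from -1.01 to -0.67).
For the paralogs PER2 and PER3 the interval of the change included 0. PER2 was 11.3 times as abundant as PER3 in the control group and 12.0 times in test group IV (change of 0.09, interval from -0.28 to 0.47). CRY1 gained on CRY2, from 2.28 to 2.80 times its level (change of 0.30, interval from 0.15 to 0.44). CLOCK and ARNTL, which act as a pair, went from a ratio of 1.05 to 1.34 (change of 0.35, interval from 0.16 to 0.55). The repressor NR1D2 went from 1.85 to 1.49 times the level of its target ARNTL (change of -0.31, interval from -0.51 to -0.11). Of the 45 pairs among the 10 genes, the interval of the change excluded 0 for 36, which again counts sampling of fragments and not of birds. The same share was not computed for pairs of other genes, so the count cannot be called particular to the clock genes.

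The neighbours of the clock genes on the chromosomes had mostly small differences. Of the 20 nearest listed neighbours, 1 on each side of each gene, 18 passed the FPKM filter, and their log2 ratios ran from -0.94 to 0.51 with a median of -0.05. Only 1 of them, without a symbol and next to CRY2, was at least 1.5-fold lower, and 0 were at least 1.5-fold higher (8.24% and 10% of all genes). With 18 genes, these counts do not set the neighbours apart from all genes. CAB39, the gene before PER2 at a distance of 50112 bases, had a log2 ratio of 0.26. VAMP3 starts 290 bases after the end of PER3 and had 544 and 480 fragments, a log2 ratio of -0.31.

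Of 10 other genes of the core loop or linked to it that were looked for, ARNTL2, RORA and TIPIN were found by symbol. The other 7, with PER1, NR1D1, CRY4 and BHLHE41 among them, were not found and are not analysed here. RORA encodes the nuclear receptor that activates ARNTL from the same DNA sites at which NR1D2 represses it. It had 142 fragments in the control library and 82 in test group IV (2.47 and 1.31 FPKM), a log2 ratio of -0.92 (interval from -1.33 to -0.51). The activator and the repressor of these sites were thus both lower in test group IV, and NR1D2 went from 13.2 to 17.8 times the RORA level (change of 0.43, interval from 0.003 to 0.86). ARNTL2, a paralog of ARNTL, had 158 and 197 fragments with a log2 ratio of 0.19 (interval from -0.12 to 0.50). TIPIN, a partner of TIMELESS at replication forks, had 254 and 320 fragments with a log2 ratio of 0.21 (interval from -0.03 to 0.45). Neither of these intervals excluded equal levels.

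The PAR bZIP factors TEF and HLF activate the D-box sites that NFIL3 blocks, and their own genes are driven by CLOCK and ARNTL in mammals. TEF had 394 fragments in the control library and 361 in test group IV, a log2 ratio of -0.25 (interval from -0.46 to -0.04). HLF had 313 and 252 fragments, a log2 ratio of -0.44 (interval from -0.68 to -0.19). The third factor, DBP, was not found. NFIL3 stood at 2.24 times the TEF level in the control group and 2.35 times in test group IV (change of 0.07, interval from -0.17 to 0.31).

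Genes known in mammals as rhythmic or clock-driven outputs were represented by 12 of 17 symbols. Of these 12, 3 were at least 2-fold lower and 0 at least 2-fold higher (3.31% and 3.1% of all genes), and the median log2 ratio was -0.40. This list and those below were chosen with earlier results of these data known. Their counts therefore cannot be read as an excess over all genes. The 3 lower genes were PDK4, NOCT and PFKFB3, and in the control library the FPKM of each was above that of CRY1. PDK4, the kinase that shuts off pyruvate dehydrogenase in fasted muscle, had 48055 fragments in the control library and 16297 in test group IV (981 and 305 FPKM), a log2 ratio of -1.68. NOCT, a rhythmic phosphatase of NADP cofactors also known as nocturnin, had 5112 and 1749 fragments (116 and 36.4 FPKM), a log2 ratio of -1.67. PFKFB3, which makes the activator of glycolytic phosphofructokinase, had 10131 and 3972 fragments and a log2 ratio of -1.48. Their counting intervals were narrow, at most from -1.75 to -1.59 for NOCT. UCP3, an uncoupling protein of muscle mitochondria that was named after its values were seen, had 21245 and 11589 fragments and the highest control level of the 12. Its FPKM of 525.2 in test group IV was 0.5003 times the control value, just short of the limit, and after median ratio scaling it was the fourth output gene at least 2-fold lower.

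Transcripts of enzymes that modify PER, CRY or other clock proteins, which include but are not limited to those that mark them for decay, had small differences. Of 24 kinases, phosphatases, ligase subunits and related enzymes, 18 were found, none of which was 1.5-fold higher or lower (10% and 8.24% of all genes), and their median log2 ratio of 0.10 was near that of all genes. CSNK1E, the casein kinase 1 epsilon that phosphorylates PER proteins, had the most negative value, with 659 fragments in the control library and 513 in test group IV (log2 ratio of -0.49, interval from -0.66 to -0.32). PRKAA2, the muscle AMPK catalytic subunit that can phosphorylate CRY1 in mammals, had 1696 and 2501 fragments and a log2 ratio of 0.44 (interval from 0.35 to 0.53). CUL1, the scaffold of the ligase that removes CRY and PER, had 1143 and 1652 fragments and a log2 ratio of 0.41 (interval from 0.30 to 0.52).
Of 16 coregulators that work with clock factors, 15 were found. Of these, 2 were at least 2-fold lower and 0 at least 2-fold higher (3.31% and 3.1% of all genes). The median log2 ratio of the 15 was -0.09, and 6 of them had higher FPKM values in test group IV, as had 6677 of the 11010 genes compared. The 3 with the largest differences follow. KMT2A, a histone methyltransferase that works with CLOCK in mammals, had 929 and 427 fragments, a log2 ratio of -1.25 (interval from -1.41 to -1.08). NRIP1, a corepressor of nuclear receptors, had 2195 and 1170 fragments and a log2 ratio of -1.03 (interval from -1.14 to -0.93). NCOR1, the corepressor that NR1D2 recruits, had 5789 and 3877 fragments and a log2 ratio of -0.70 (interval from -0.76 to -0.64), so the receptor and its corepressor were both lower in test group IV.

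Glucocorticoid-responsive genes and immediate early genes were included as possible signs of the state of the birds at sampling. The 2 lists had median log2 ratios below that of all genes, but not all of their members were lower in test group IV. Both lists were chosen with earlier results of these data known, so their counts cannot be read as an excess over all genes. Of 11 glucocorticoid-responsive symbols, 8 were found. Of these, 3 were at least 2-fold lower and 0 at least 2-fold higher (3.31% and 3.1% of all genes), and the median log2 ratio was -0.68. SGK1, a kinase of ion transport named after its values were seen, was higher, with 1329 fragments in the control library and 1707 in test group IV (log2 ratio of 0.24, interval from 0.13 to 0.34), and the interval of KLF9 held no difference. ZBTB16, a transcription factor strongly induced by these hormones in mammals, had 501 fragments in the control library and 105 in test group IV, a log2 ratio of -2.38 (interval from -2.70 to -2.07). CEBPD, a bZIP factor, had 749 and 231 fragments and a log2 ratio of -1.82 (interval from -2.04 to -1.61). FKBP5, which binds and restrains the glucocorticoid receptor complex, had 5489 and 1755 fragments and a log2 ratio of -1.77 (interval from -1.85 to -1.69). These 3, named for the largest differences of their list, differed more between the libraries than any of the 10 clock genes. No other gene found of that list differed by as much as PER3. KLF15, described under other observations, had a log2 ratio of -0.88, and its counting interval (from -1.01 to -0.76) overlapped that of PER2.
Of 17 immediate early symbols, 14 were found and 13 passed the FPKM filter, 4 of these were at least 2-fold lower and 0 at least 2-fold higher (3.31% and 3.1% of all genes), and the median log2 ratio was -0.88. The intervals of FOS (log2 ratio of 0.09), FOSB and EGR3 held no difference. NR4A2, an orphan nuclear receptor, had 496 and 175 fragments and a log2 ratio of -1.63 (interval from -1.88 to -1.38). FOSL2, an AP-1 subunit, had 164 and 61 fragments and a log2 ratio of -1.55 (interval from -2.0 to -1.12). ATF3, a stress-induced repressor, had 2349 and 991 fragments and a log2 ratio of -1.37 (interval from -1.48 to -1.26).
Among markers of other cell types, those found of fat cells had lower values in test group IV. Of 5 adipocyte symbols 4 were found, and all 4 had lower FPKM values there, as had 4333 of the 11010 genes compared. These 4 summed to 70.4 FPKM in the control group and 45.3 FPKM in test group IV. PLIN1 (68 and 30 fragments) and PPARG (38 and 23 fragments) were scarce, at 0.750 and 0.768 FPKM in test group IV. The 4 endothelial markers found summed to 44.1 and 43.6 FPKM, the 5 fibroblast markers to 315 and 368 FPKM, the 6 leucocyte markers to 194 and 250 FPKM and the 2 erythrocyte markers to 23.2 and 23.0 FPKM. None of the markers found was at 0 in test group IV. In the control library none could be, since the listed genes all have 1 or more control fragments. The part of hormone state, of handling before sampling and of fat cell content in the clock gene values was not tested.

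**Figure D4:**
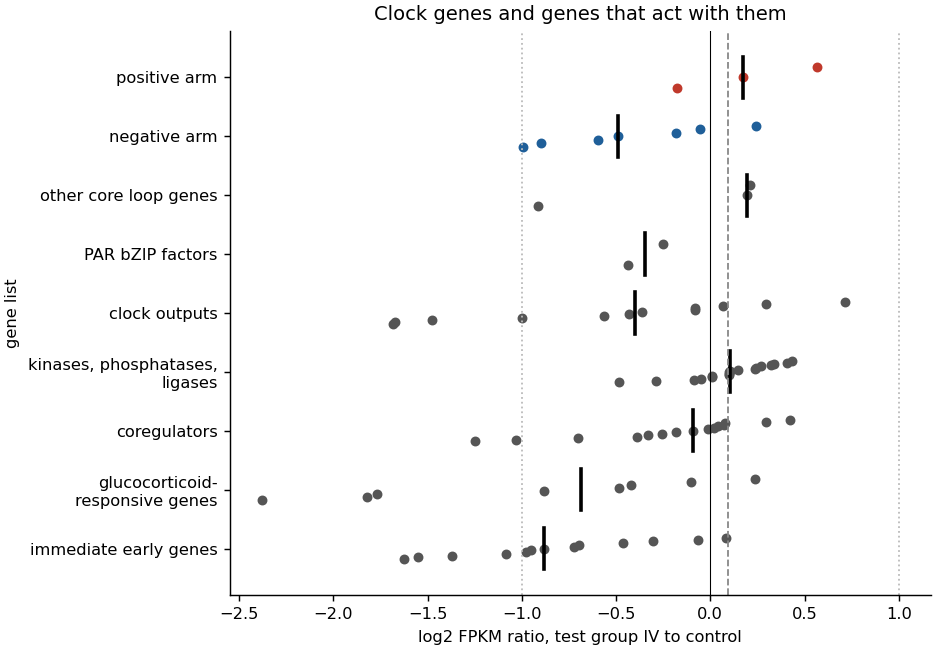
Log2 FPKM ratio of the test group IV library to the control library (x axis) for each gene of the 2 arms (all 10 clock genes) and of the 7 other lists (genes passing the FPKM filter), with a black bar at the median of each list and a dashed line at the median of all genes compared (0.09). The medians of the negative arm (-0.49), the clock outputs (-0.40), the glucocorticoid-responsive genes (-0.68) and the immediate early genes (-0.88) lie on the left, while that of the kinases, phosphatases and ligases (0.10) lies at the dashed line. The bar of the positive arm (0.18) includes NPAS2, and among the genes of that arm passing the filter the median is -0.001.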

How the data were processed

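RNA pooled from 3 birds per group gave 1 paired-end library each. The authors removed adaptors, low-quality and poly-N reads with Seqtk and mapped reads to Galgal5 with TopHat 2.0.9. They counted fragments with StringTie 1.3.0, report a TMM (trimmed mean of M-values) scaling, and computed FPKM with a Perl script. The submitters' processing notes also name HISAT2 and FastQC. The deposited FPKM values carry a relative depth of 1.09025, where TMM computed here from the counts gave 1.16124. The main ratios thus lack a TMM scaling. The deposited values are raw fragment counts and FPKM per gene. The listed genes all have 1 or more control fragments, and genes detected only with tyrosine were not used here.

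Groups followed the diet labels. The members and lists were chosen with earlier results of these data known. Intervals are Clopper-Pearson intervals of the test group IV share of a gene's fragments, converted with a relative depth of 1.09025, and ratios between genes have exact conditional intervals. With 1 library per group no test or P-value was computed. All 10 clock genes are named, all genes found of the 2 short lists, and of each longer list the 3 with the largest difference among genes with at least 50 fragments. RACK1 was matched through the older symbol GNB2L1 with RefSeq names of assembly GRCg7b. Python 3.11.15, scipy 1.17.1 and, for TMM, edgeR 4.0.16 were used, and the interval procedures were tested on simulated data.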

Additional observations from a re-analysis of the deposited data

How the results depend on the processing

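No paired analysis was possible because each group has 1 library, and for the same reason no library could be left out. Scaling by the median ratio (1.06) lowered each log2 ratio by 0.09, as did TMM. No clock gene changed direction under these scalings, but none could, since the lowest ratio above 0 was 0.18 (CLOCK). Adding 0.1 or 1 to each FPKM value cannot change a direction either. Of the 40 values under these scalings and additions, 37 stayed inside the counting interval. The exceptions were CRY1, at 0.15 under either scaling, and PER3, at -0.61 with 1 added. The count of clock genes at least 2-fold lower was 1 (PER3) under median ratio or TMM scaling, and 3 with a 1.5-fold limit, with or without median ratio scaling. The combination of both, and the restriction to genes whose FPKM averaged 10 or more, were chosen after seeing the data. The number of clock genes with a counting interval above no difference was 1 (CRY1) under either scaling. Of 42 alternative counts for the other lists, 40 stayed within 1.5 times. The exceptions were 1 other core loop gene (RORA) at least 2-fold lower after median ratio scaling, and 1 coregulator at least 2-fold lower with 1 added to each FPKM value. Many of the 40 compare 0 with 0, among them every count of genes at least 2-fold higher, so they say little about stability. Within the limit of 1.5 times, median ratio scaling raised the lower counts from 4 to 6 for immediate early genes and from 3 to 4 for clock outputs. The same scaling raised the share of all genes at least 2-fold lower from 3.31% to 3.97%. Depth limits NPAS2, with 81 fragments in all, and PER3, with 291. Variation between birds, pools and sampling hours is not covered by any interval given here.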

Other observations

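The values of 4 further genes, 3 of the clock output list and 1 of the glucocorticoid-responsive list, are given here and were chosen after they were seen. MYOD1, the myogenic factor whose enhancer CLOCK and ARNTL bind in mouse muscle, was higher in test group IV, with 1557 fragments in the control library and 2790 in test group IV (54.4 and 89.5 FPKM), a log2 ratio of 0.72 (interval from 0.63 to 0.81). It was the only one of the 12 output genes at least 1.5-fold higher, where 10% of all genes were. At least 1.5-fold lower were 4 of the 12, against 8.24% of all genes. NAMPT, the rhythmic enzyme of NAD synthesis in mammals, had 431 and 451 FPKM and a log2 ratio of 0.07, and CIRBP, a cold-induced RNA-binding protein that follows body temperature in mammals, had 12.6 and 12.0 FPKM and a log2 ratio of -0.08, with an interval from -0.19 to 0.03 that held no difference. KLF15, of the glucocorticoid-responsive list and a regulator of amino acid use in mammals, had 1422 and 841 fragments and a log2 ratio of -0.88.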
